A study of Homo sapiens with 12 samples.

Results

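The response of DU 145 cells to MS13 was described over 6 of the 12 samples of a study of prostate cancer cells: the 3 DU 145 samples labelled as treated replicates 1 to 3 and the 3 labelled as control replicates 1 to 3. DU 145 is an established human cell line from a brain metastasis of a prostate carcinoma that grows without androgen. MS13 belongs to the diarylpentanoids, synthetic compounds modelled on curcumin. MS13-treated DU 145 cells received 16 µM MS13 for 24 h, and control DU 145 cells received medium with the solvent DMSO alone, both groups in EMEM. The remaining 6 samples came from PC-3 cells, another androgen-independent prostate cancer line grown in a different medium (F-12K), with MS13 at the same dose and time in 3 and without it in 3, and they enter below where the responses of the lines were compared. Each line stands for 1 tumour, and 1 dose and 1 time were measured.

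Cells that meet unfolded or chemically modified proteins switch on heat shock protein genes through the factor HSF1, while stress of the endoplasmic reticulum acts through the kinase PERK and the factor ATF4, which turn on DDIT3. A cell that stops dividing lowers genes that peak in S phase, such as those of replication and of canonical histones, and genes that peak in G2 and mitosis, such as the B-type cyclins, while CDK inhibitors such as p21 hold back the cyclin-dependent kinases.

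Total RNA was counted with the nCounter PanCancer Pathway Panel, in which a capture probe and a colour-coded reporter probe bind each transcript and the codes are read 1 by 1 with no amplification step, so that a value is the number of codes of 1 gene. Summed over the 770 panel genes, the MS13-treated samples held 508284 to 604629 counts and the controls 482298 to 560157. Counts were divided by the geometric mean of 40 housekeeping genes on the panel, and these normalised counts are the values given per sample. The negative probes set a background limit (their mean plus 2 SD) of 20.2 normalised counts in MS13-treated cells and 27.1 in controls. Of 16 genes of blood or stromal cells all but CD40 lay under it in both DU 145 groups. Replicates within a DU 145 group differed slightly more than counting noise alone gives (1.26 to 1.42 for chi-square over its degrees of freedom), and since the labels also speak of technical repeats, the p-values measure only the spread between these samples, which may be technical.

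MS13-treated DU 145 cells differed from controls in about 2 of every 3 genes tested. Of 684 genes with a mean count of at least 10, 452 changed (66.1% of those tested, edgeR's quasi-likelihood test, Benjamini-Hochberg adjusted p of at most 0.05), 130 of them higher (19%) and 322 lower (47.1%) with MS13. Those of them that differed at least 2-fold are called differentially expressed genes (DEGs), and 60 were DEGs with higher counts (8.77%) and 142 with lower counts (20.8%). In 456 genes (66.7%) all 3 MS13 samples lay on one side of all 3 controls. By the fitted fold, 21 genes were at least 4-fold higher and 17 at least 4-fold lower, and 9 genes at least 8-fold higher against 1 at least 8-fold lower. In total RNA a smaller number of cells of a kind and less RNA per cell cannot be told apart, and the cells measured were those harvested after 24 h.

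**Figure D1:**
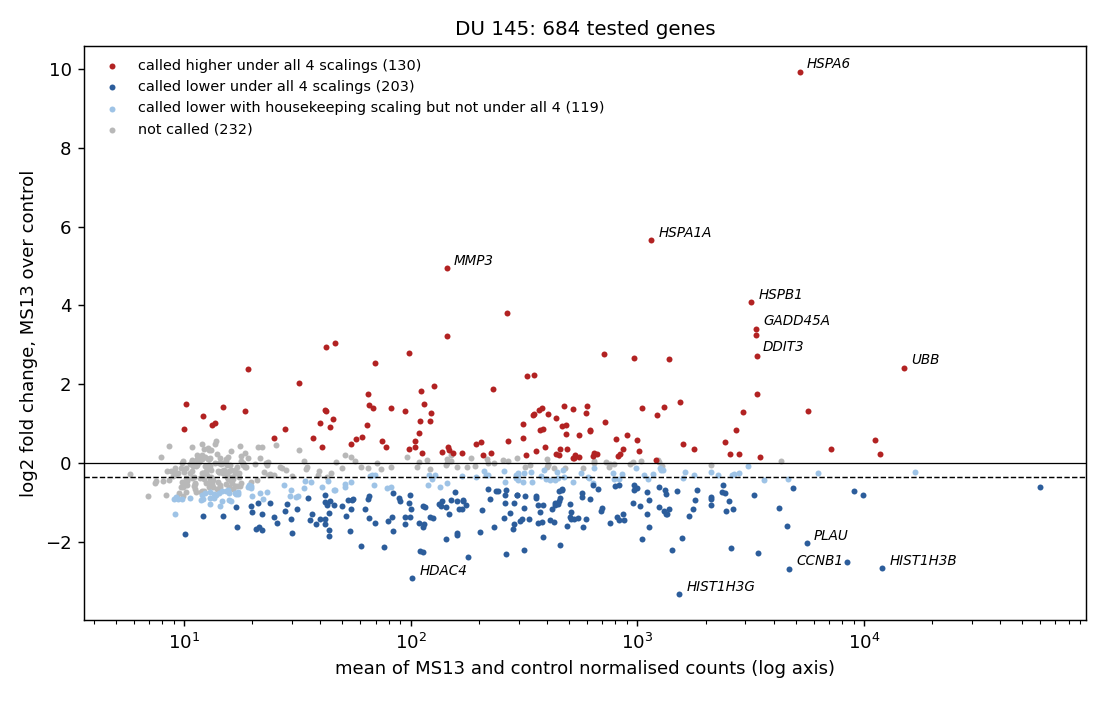
Log2 fold change of MS13 over control in DU 145 cells (vertical axis) against the mean normalised count (horizontal log axis) for the 684 tested genes, with the median of all genes as a dashed line at -0.34. The 130 genes called higher reach far from 0, with HSPA6 at a fitted value of 9.92, while the genes called lower form a broad band that ends at HIST1H3G at -3.32.

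How many genes were lower depended on what the counts were scaled by. The housekeeping genes did not move as 1 block: after scaling they ranged from -2.15 to 1.35 on the log2 scale, 5 at least 2-fold higher with MS13 and 2 at least 2-fold lower, of which CC2D1B lay near the background limit at 6.66 normalised counts with MS13 and 29.6 in controls. Before scaling, their geometric mean was higher in MS13-treated samples than in controls by 0.34 on the log2 scale, while that of positive control probes A to E, which are added in known amounts, was higher by 0.06. The median log2 fold change of all tested genes was therefore -0.34 with all 40 housekeeping genes, -0.18 with the 10 most stable of them, -0.07 with the positive probes and 0.08 with TMM scaling, which assumes that most genes do not move. All 130 rises (19%) held under the 4 scalings, and 203 of the falls (29.7%) did, while of the DEGs 60 higher and 59 lower held with at least a 2-fold change under each. The 40 housekeeping genes gave the lowest log2 fold changes of the 4 scalings, so a rise called with them could only grow under the others. That rises held was thus close to fixed beforehand, and the falls that held were the 203 genes called lower with TMM. Below, "rose" and "fell" refer to calls with the 40 housekeeping genes, and the number that held under all 4 scalings stands beside each list. Of the 684 genes 198 lay under the background limit in both groups, 45 of them called and most of these lower. Among the other 486 genes 125 rose and 282 fell. Falls among genes of about 20 counts are therefore given as counts of genes and not by size.

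**Figure D2:**
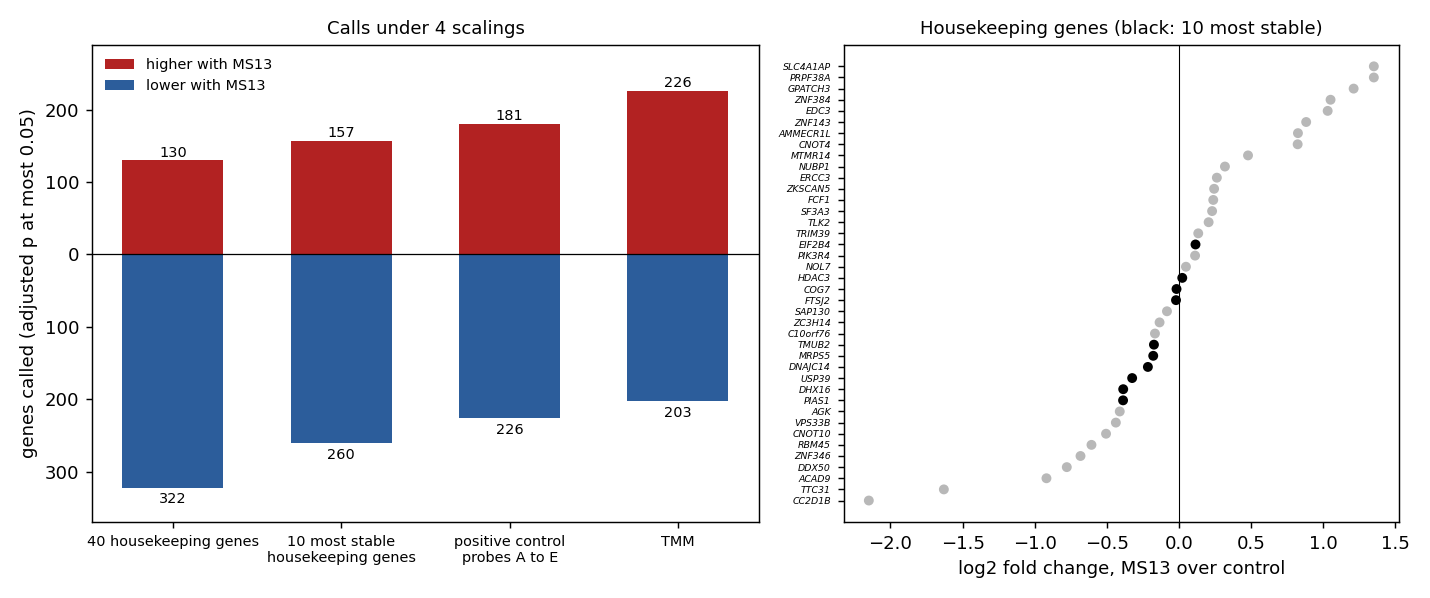
Left, number of genes called higher (upward) and lower (downward) with MS13 in DU 145 cells under 4 scalings of the counts. Right, log2 ratio of the mean normalised counts of the 40 housekeeping genes, MS13 over control, with the 10 most stable in black. Calls shift from 130 higher and 322 lower with all housekeeping genes to 226 higher and 203 lower with TMM.

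The sequences upstream of 3 heat shock genes and 2 cyclin genes are shown because 3 of the 4 largest rises were of heat shock genes and the cyclin genes fell more than 4-fold. They are the RefSeq promoter windows (GRCh38.p14) of 250 bases before to 50 after the annotated gene start, 5′ to 3′ on the gene's strand, and 524 of the 684 tested genes had such a window under their symbol or a unique synonym. Capitals in the heat shock genes mark GAANNTTC or TTCNNGAA (N is any base), the core of the heat shock element to which HSF1 binds, each being its own reverse complement. HSPA6 lies at chr1:161524290-161524589 and HSPA1A at chr6:31815293-31815592, both on the plus strand, and HSPB1 at chr7:76302423-76302722 on the plus strand.
HSPA6: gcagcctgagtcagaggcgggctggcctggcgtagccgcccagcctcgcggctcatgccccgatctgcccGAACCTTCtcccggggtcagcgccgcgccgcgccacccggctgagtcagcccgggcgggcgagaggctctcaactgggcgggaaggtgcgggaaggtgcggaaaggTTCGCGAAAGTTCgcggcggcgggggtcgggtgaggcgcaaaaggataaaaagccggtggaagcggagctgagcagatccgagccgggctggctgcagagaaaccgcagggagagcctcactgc
HSPA1A: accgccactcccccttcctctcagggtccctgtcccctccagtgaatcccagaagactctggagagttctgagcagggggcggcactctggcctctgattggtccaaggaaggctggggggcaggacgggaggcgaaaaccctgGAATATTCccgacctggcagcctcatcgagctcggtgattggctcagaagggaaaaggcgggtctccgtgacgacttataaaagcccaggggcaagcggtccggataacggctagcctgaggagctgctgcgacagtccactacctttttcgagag
HSPB1: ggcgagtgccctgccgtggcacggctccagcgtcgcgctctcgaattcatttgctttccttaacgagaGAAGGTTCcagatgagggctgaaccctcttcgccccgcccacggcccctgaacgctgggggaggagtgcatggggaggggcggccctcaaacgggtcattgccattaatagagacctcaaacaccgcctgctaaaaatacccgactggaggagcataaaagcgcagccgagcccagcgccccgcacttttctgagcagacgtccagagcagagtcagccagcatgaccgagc
The HSPA6 window held 3 matches, which begin 180, 74 and 69 bases before the gene start, and the last 2 overlap. HSPA1A held 1 match, 106 bases before its start, and HSPB1 held 1 match, 182 bases before its start. HSPA2 and HSP90B1 held none, so 3 of the 5 heat shock windows had these letters, as did 13.5% of 35116 reference promoters and 11.8% of the tested genes' windows. A match is a description of the sequence and not a measured binding site.

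All 5 heat shock genes of the panel rose, against 19% of all genes tested, and with them lay the largest rise of the whole panel. HSPA6, a heat shock protein 70 gene that is nearly silent without stress, was counted at 10661, 10562 and 10058 in MS13 samples, against 8.60, 15.1 and 7.87 in controls. Every control lay under the background limit, so that MS13-treated cells held at least 385-fold more than that limit (edgeR's quasi-likelihood test, adjusted p = 3.82e-83). HSPA1A, the main stress-induced heat shock protein 70 gene, whose copy HSPA1B is nearly identical and may share its probe, was counted at 2187, 2380 and 2217 with MS13 and at 51.6, 35.0 and 49.2 in controls, a log2 fold change of 5.65 (SE 0.084). HSPB1, which encodes the small chaperone HSP27, was counted at 5996, 6272 and 5750 with MS13, against 321, 361 and 380 in controls (log2 fold change 4.08, SE 0.049). In each of these genes the groups were far apart and the samples of a group close together. HSPA2, another member of the HSP70 family, averaged 1668 ± 29.6 with MS13 and 265 ± 9.66 in controls (SD, n = 3 each), and HSP90B1, the HSP90 of the endoplasmic reticulum, averaged 4168 ± 124 with MS13 and 1696 ± 122 in controls. The list's median log2 fold change was 4.08, against -0.34 over all tested genes.

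The 5 genes together took 5.46 ± 0.02% of all panel counts in MS13-treated cells and 0.453 ± 0.021% in controls (SD, n = 3 each), a share that does not depend on the scaling. An exact two-sided permutation test gave p = 0.1, the smallest that 3 samples against 3 allow, with 3 of 3 MS13 samples above every control. Outside the lists, and chosen after its values were seen, UBB, a polyubiquitin gene that stress induces, stood at 24605, 26232 and 25093 with MS13, against 4635, 4850 and 4770 in controls (log2 fold change 2.41, SE 0.035).

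Stress genes linked to the endoplasmic reticulum and growth arrest moved the same way. Of 6 tested, 5 rose (83.3%, against 19% of all genes tested), each under all 4 scalings, and NUPR1 fell, but not under all 4. GADD45A, whose product binds PCNA and CDK1 and marks growth arrest, was counted at 6164, 6155 and 5947 in MS13 samples, against 558, 585 and 573 in controls (log2 fold change 3.41, SE 0.043). DDIT3, which encodes the factor CHOP, stood at 5963, 6208 and 5905 with MS13, against 599, 661 and 632 in controls (log2 fold change 3.25, SE 0.043). The 3 MS13 values of both genes lay about 10-fold above the controls with no overlap. GADD45B averaged 1527 ± 46.8 with MS13 and 576 ± 39.6 in controls, and GADD45G 118 ± 5.73 with MS13, at least 4.37-fold above the limit under which its controls lay. DDIT4, an inhibitor of mTOR complex 1 that the same stress pathway induces, rose by less, at 394 ± 21.5 with MS13 and 320 ± 19.1 in controls. The list median was 1.97, or 1.77 with GADD45G at its bound.

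AP-1 genes and the genes that restrain MAP kinase signalling rose side by side. FOS, a subunit of the AP-1 factor that growth signals and stress switch on within minutes, was counted at 1251, 1291 and 1208 in MS13 samples, against 171, 183 and 191 in controls (log2 fold change 2.78, SE 0.061), and its partner JUN averaged 878 ± 27.2 with MS13 and 319 ± 46.9 in controls. NR4A1, an orphan nuclear receptor of the same early wave, rose by a log2 fold change of 0.57, FOSL1 did not pass the test (0.04) but was called higher with TMM (0.47), and NR4A3 was called lower with housekeeping scaling (-0.41) and stood at 0.02 with TMM. Of the 10 tested phosphatase and Sprouty genes 8 rose (80%, against 19% of all genes tested), all under the 4 scalings. The list median was 1.10, or 0.88 with the genes under the limit in controls at their bounds. DUSP5, a nuclear phosphatase of ERK, stood at 5815, 6019 and 5642 with MS13, against 912, 850 and 913 in controls (log2 fold change 2.71, SE 0.041). DUSP6, the cytoplasmic ERK phosphatase, averaged 526 ± 17.9 with MS13 and 208 ± 12.9 in controls, and DUSP10, which acts on p38 and JNK, 135 ± 8.86 with MS13 and 54.1 ± 12.7 in controls. SPRY4, an inhibitor of receptor-driven RAS signalling, was counted at 179, 166 and 172 with MS13, against 26.9, 27.4 and 20.7 in controls, at least 6.35-fold above the limit. PTPRR, a tyrosine phosphatase of ERK, averaged 75.2 ± 2.59 with MS13 and was under the limit in controls, at least 2.77-fold.

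**Figure D3:**
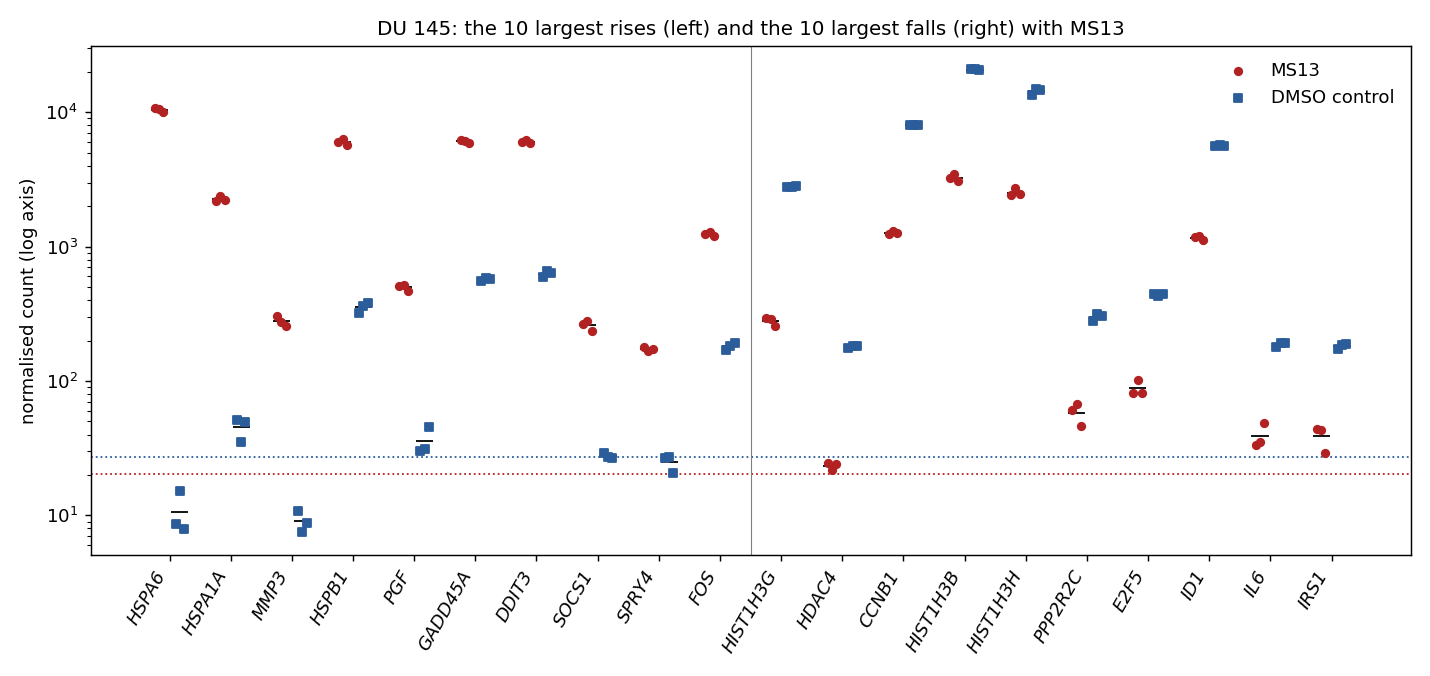
Normalised counts (log axis) of each DU 145 sample for the 10 DEGs with the largest rise (left of the vertical line) and the 10 with the largest fall (right), where the higher group's mean reached 100; circles are MS13 samples, squares DMSO controls, short bars group means and dotted lines the background limits of 20.2 (MS13) and 27.1 (control). In all 20 genes the groups are apart, and the controls of HSPA6 and MMP3 lie under their limit.

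Genes of G1 phase and its inhibitors moved in both directions. Among CDK inhibitors CDKN1A, which encodes p21, was counted at 2406, 2450 and 2308 in MS13 samples, against 392, 384 and 381 in controls (log2 fold change 2.63, SE 0.049), and CDKN2B and CDKN1C also rose (0.63 and 0.98), while CDKN2A, which encodes p16 and p14ARF, was 260 ± 18.8 with MS13 and 581 ± 10.7 in controls and CDKN2C fell by 0.55 on the log2 scale. CDKN1B was called lower by housekeeping scaling and not under all 4. Genes that drive entry into S phase were among the rises: CCNE1 (cyclin E1) averaged 698 ± 23.5 with MS13 and 256 ± 24.7 in controls, CDC25A, the phosphatase that activates CDK2, 570 ± 26.6 with MS13 and 240 ± 13.1 in controls, and CCNE2 rose by a log2 fold change of 0.85. In the same list of 17 genes E2F5, a repressive E2F, stood at 82.0, 102 and 81.7 with MS13, against 442, 429 and 443 in controls (log2 fold change -2.31, SE 0.085). TFDP1, the dimer partner of the E2Fs, averaged 670 ± 34.4 with MS13 and 2472 ± 124 in controls, and RB1 averaged 289 ± 15.4 with MS13 and 767 ± 31.4 in controls. Of the 17 genes 5 rose (29.4%, against 19% of all genes tested), all under the 4 scalings, and 9 fell (52.9%, against 47.1%), 7 under all 4.

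In the list of G2 phase and mitosis 15 of 18 genes fell (83.3%, against 47.1% of all genes tested) and 1 rose. Of the falls 13 held under all 4 scalings, and the list median was -1.09, against -0.34 over all tested genes. CCNB1, the B-type cyclin that takes CDK1 into mitosis, was counted at 1238, 1298 and 1252 in MS13 samples, against 8096, 8080 and 7992 in controls (log2 fold change -2.67, SE 0.037). CCNA2, the cyclin of S phase and G2, stood at 960, 960 and 941 with MS13, against 4214, 4311 and 4214 in controls (log2 fold change -2.15, SE 0.040). The controls of both cyclins lay more than 4-fold above the MS13 samples. CDC25B, a phosphatase that activates CDK1, averaged 174 ± 8.69 with MS13 and 734 ± 7.47 in controls, and SMC1A, a subunit of cohesin, 190 ± 8.42 with MS13 and 541 ± 17.8 in controls. The riser was WEE1, the kinase that holds CDK1 inactive, at 973 ± 24.9 with MS13 and 756 ± 28.6 in controls. PTTG2, near-identical to the securin gene PTTG1 and thus not surely told apart from it, also fell.

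The promoter windows of CCNB1 (chr5:69166900-69167199, plus strand) and CCNA2 (chr4:121823834-121824133, minus strand) carry CCAAT on either strand, read as CCAAT or ATTGG and set in capitals, the box bound by NF-Y that many genes of this phase share.
CCNB1: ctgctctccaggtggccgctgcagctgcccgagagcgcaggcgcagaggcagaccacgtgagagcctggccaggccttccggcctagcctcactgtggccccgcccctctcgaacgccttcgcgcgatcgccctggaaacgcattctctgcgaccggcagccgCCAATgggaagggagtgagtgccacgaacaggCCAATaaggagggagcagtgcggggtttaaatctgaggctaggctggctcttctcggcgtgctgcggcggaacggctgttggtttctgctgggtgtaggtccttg
CCNA2: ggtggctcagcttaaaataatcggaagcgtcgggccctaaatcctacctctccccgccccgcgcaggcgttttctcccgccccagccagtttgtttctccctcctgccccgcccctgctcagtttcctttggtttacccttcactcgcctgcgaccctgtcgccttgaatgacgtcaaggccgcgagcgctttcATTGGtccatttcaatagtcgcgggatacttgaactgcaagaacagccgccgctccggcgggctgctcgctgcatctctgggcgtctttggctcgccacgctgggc
CCNB1 held 2 such boxes, 87 and 55 bases before its start, and CCNA2 held 1, 56 bases before it. A CCAAT box stood in 5 of the 14 windows found for this list, and in 34.6% of all reference promoters. The letters TTTGAA or TTCGAA, read on both strands, which belong to the cell cycle homology region, stood in 1 of the 14 windows (SMC3) and in 16.4% of all reference promoters, and were not in the windows of CCNB1 or CCNA2. No other form of this region was searched, so a window without these letters was not shown to lack it.

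Canonical histone H3 genes, which are transcribed in S phase, were among the largest falls, whereas replacement histone genes were not. HIST1H3G was counted at 292, 289 and 256 in MS13 samples, against 2758, 2787 and 2810 in controls (log2 fold change -3.32, SE 0.053). HIST1H3B stood at 3237, 3464 and 3102 with MS13, against 20860, 20949 and 20464 in controls (log2 fold change -2.67, SE 0.036), and HIST1H3H averaged 2527 ± 164 with MS13 and 14303 ± 811 in controls. These copies are close in sequence, so their probes may share transcripts. These 3 genes together took 1.35 ± 0.04% of panel counts with MS13 and 7.23 ± 0.08% in controls (SD, n = 3 each; exact two-sided permutation p = 0.1, the smallest this design allows). H3F3C rose to 13426 ± 556 with MS13, against 8940 ± 204 in controls, but it is close in sequence to H3F3B, which was not tested. The H3F3C probe may thus count transcripts of H3F3B. H2AFX did not pass the test (0.05) but was called higher with TMM (0.48), and H3F3A was called lower with housekeeping scaling (-0.25) and higher with TMM (0.17). Replication genes fell in 11 of 14 cases (78.6%, against 47.1% of all genes tested), 8 under all 4 scalings (57.1%, against 29.7%), with a list median of -0.68. POLE2, part of DNA polymerase epsilon, averaged 390 ± 31.0 with MS13 and 1122 ± 20.8 in controls, and MCM7, of the replicative helicase, 1464 ± 67.5 with MS13 and 2748 ± 13.0 in controls. The exception was CDC6, which loads that helicase on origins, at 5343, 5242 and 4976 with MS13, against 1594, 1534 and 1478 in controls (log2 fold change 1.76, SE 0.039).

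Genes of the repair of strand breaks mostly fell, and those of other DNA repair less clearly so. Of 23 genes of the repair of strand breaks and its checkpoint 18 fell (78.3%, against 47.1% of all genes tested), 13 under all 4 scalings, and 2 rose (FANCB by 0.56 and LIG4 by 0.14, a call that was lost without control replicate 1, at 0.07, or MS13 replicate 2, at 0.10), with a list median of -0.89. RAD50, of the complex that senses broken ends, stood at 79.8, 59.8 and 74.4 in MS13 samples, against 246, 254 and 244 in controls (log2 fold change -1.78, SE 0.10). BRIP1, a helicase that works with BRCA1, averaged 168 ± 5.65 with MS13 and 453 ± 4.35 in controls, and UBE2T, the E2 enzyme of the Fanconi pathway, 457 ± 27.2 with MS13 and 1176 ± 84.5 in controls. ATM, the kinase that signals breaks, was low throughout, at 20.8 ± 4.67 with MS13, near the background limit, and 66.4 ± 4.26 in controls. Of 12 genes of mismatch, excision and alkylation repair 7 fell (58.3%, against 47.1% of all genes tested), 6 under all 4 scalings, and 2 rose. With TMM 6 of the 12 were called lower and 5 higher. MGMT, which removes alkyl groups from guanine, stood at 91.7, 122 and 125 with MS13, against 503, 527 and 522 in controls (log2 fold change -2.20, SE 0.081).

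Genes of apoptosis changed in both directions. MDM2, which encodes an E3 ubiquitin ligase, rose to 1870 ± 38.9 with MS13, against 1325 ± 21.8 in controls. BAX, which opens the mitochondrial outer membrane in apoptosis, averaged 422 ± 32.2 with MS13 and 719 ± 13.7 in controls, and its relatives BAD and BID and the protective BCL2L1 fell by 0.70, 0.66 and 0.68 on the log2 scale. BCL2 lay under the background limit in both groups. In the list of death receptors, caspases and cytochrome c 4 of 16 genes rose (25%) and 7 fell (43.8%, 5 of these under all 4 scalings), against 19% and 47.1% of all genes tested. TNFRSF10D, a decoy receptor of the death ligand TRAIL, was 1898, 1940 and 1924 with MS13, against 722, 701 and 722 in controls (log2 fold change 1.43, SE 0.044). The signalling receptor genes TNFRSF10B and TNFRSF10A rose by 0.95 and 0.49. ENDOG, a mitochondrial nuclease, averaged 200 ± 19.7 with MS13 and 557 ± 14.3 in controls, and CASP9, the initiator caspase of the mitochondrial route, fell by 0.92.

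Inflammatory signalling genes changed in both directions. NFKBIA, which encodes the inhibitor of NF-kB that NF-kB itself induces, was counted at 1523, 1521 and 1427 in MS13 samples, against 3572, 3430 and 3351 in controls (log2 fold change -1.21, SE 0.038), and the subunit gene NFKB1 averaged 103 ± 3.81 with MS13 and 234 ± 6.27 in controls. CYLD, a deubiquitinase that restrains NF-kB, rose to 840 ± 29.7 with MS13, against 346 ± 21.5 in controls. Of the 11 genes of the NF-kB list 3 rose (27.3%) and 6 fell (54.5%), shares near the 19% and 47.1% of all genes tested, and with TMM 6 were called higher and 5 lower. IL6, a cytokine that drives STAT3, stood at 33.5, 35.4 and 48.9 with MS13, against 179, 191 and 192 in controls (log2 fold change -2.24, SE 0.13). Its family member IL11 rose to 552 ± 48.1 with MS13, against 208 ± 1.16 in controls, and its receptor gene IL6R to 365 ± 23.0, against 98.8 ± 14.2. IL8 was 1018 ± 36.4 with MS13 and 1628 ± 43.4 in controls. SOCS1, an inhibitor of the Janus kinases, stood at 265, 281 and 236 with MS13, against 29.0, 27.4 and 26.6 in controls (log2 fold change 3.23, SE 0.13), its controls at the background limit. All 12 JAK-STAT genes passed the test, against 66.1% of all genes tested. Of them 7 were higher (58.3%, against 19%) and 5 lower (41.7%, against 47.1%), 7 and 4 of them under all 4 scalings.

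Genes of matrix breakdown and adhesion gave some of the widest differences. PLAU, the urokinase plasminogen activator that cancer cells use in invasion, was counted at 2238, 2257 and 2114 in MS13 samples, against 8896, 9321 and 8784 in controls (log2 fold change -2.03, SE 0.036). MMP3, a matrix metalloproteinase, went the other way, with 304, 277 and 258 in MS13 samples, against 10.7, 7.57 and 8.85 in controls, at least 10.3-fold above the limit. The controls of MMP3 did not reach the background limit. Among integrins ITGA2, of the collagen receptor, stood at 768, 774 and 721 with MS13, against 267, 285 and 320 in controls (log2 fold change 1.37, SE 0.062), while ITGA3 and ITGB4, of laminin receptors, fell by 1.60 and 1.61 on the log2 scale. CDH1, which encodes E-cadherin, averaged 144 ± 7.02 with MS13 and 373 ± 30.3 in controls. Of 27 laminins, collagens and matrix glycoproteins 16 lay under the background limit in both groups, and of the laminin chains LAMB3 rose by 0.37 while LAMA3 fell by 1.27.

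Among 23 growth factor genes 5 were DEGs with higher counts and 5 with lower counts, 21.7% each, against 8.77% and 20.8% of all genes tested. PGF, the placental growth factor of the VEGF family, was counted at 514, 517 and 464 in MS13 samples, against 30.1, 31.2 and 45.2 in controls (log2 fold change 3.80, SE 0.11), and PDGFA averaged 174 ± 5.41 with MS13 and 48.6 ± 5.69 in controls. VEGFA, the main factor of vessel growth, averaged 2383 ± 51.0 with MS13 and 4189 ± 190 in controls. Among receptor tyrosine kinases EGFR averaged 648 ± 20.5 with MS13 and 1567 ± 46.6 in controls, and ERBB2 163 ± 16.7 with MS13 and 601 ± 49.9 in controls. FGFR3 rose to 169 ± 18.2 with MS13, against 59.8 ± 10.3 in controls. IRS1, which couples insulin-like growth factor receptors to PI3K, stood at 44.0, 43.5 and 29.2 with MS13, against 172, 185 and 189 in controls (log2 fold change -2.24, SE 0.13). Of 25 receptors and adaptors 6 rose (24%) and 8 fell (32%, 6 of these under all 4 scalings), against 19% and 47.1% of all genes tested.

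Downstream of the receptors genes changed in both directions. In the PI3K, AKT and mTOR list 11 of 16 genes fell (68.8%, against 47.1% of all genes tested), 7 under all 4 scalings, and 2 rose. AKT1 averaged 1080 ± 25.1 with MS13 and 2434 ± 34.2 in controls. PIK3R3, a regulatory subunit, rose by 1.22 and TSC1, a brake on mTOR, by 0.83. Of 34 genes of RAS, RAF and the MAP kinases 21 fell (61.8%) and 8 rose (23.5%, against 19%), and with TMM 12 were called lower and 12 higher. MAPK12 (p38 gamma) and RAC3, a small GTPase, fell by 2.11 and 1.73, and MAP3K8, a kinase upstream of ERK, and MAP2K1, the kinase of ERK, rose by 1.40 and 0.55. PPP2R2C, a regulatory subunit of the phosphatase PP2A, stood at 60.4, 68.0 and 46.0 with MS13, against 282, 315 and 307 in controls (log2 fold change -2.39, SE 0.10). The catalytic subunit gene PPP2CB rose to 8090 ± 297 with MS13, against 3236 ± 6.91 in controls.

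Developmental pathways held single genes with large changes. ID1, an inhibitor of differentiation that BMP signals induce, was counted at 1182, 1193 and 1122 in MS13 samples, against 5618, 5689 and 5623 in controls (log2 fold change -2.28, SE 0.039). Its relative ID2 went the other way, at 1714 ± 42.9 with MS13 and 729 ± 36.9 in controls. SMAD3 and TGFBR2, of TGF-beta signalling, fell by 1.08 and 1.15. Of the 28 genes in their list 8 rose (28.6%) and 11 fell (39.3%, 9 of these under all 4 scalings), against 19% and 47.1% of all genes tested. In the Wnt list 14 of 33 genes lay under the background limit in both groups. WNT7B and SFRP1 fell by 1.62 and 1.52, and CTNNB1, which encodes beta-catenin, rose by 0.16. In the Notch list the ligand gene JAG1 rose to 99.9 ± 7.75 with MS13, against 29.4 ± 5.01 in controls, and JAG2 was 226 ± 4.05 with MS13 and 637 ± 6.15 in controls. NOTCH1 rose by 1.39 and NOTCH2 fell by 0.80.

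Of 35 chromatin genes 8 rose (22.9%) and 19 fell (54.3%), shares near the 19% and 47.1% of all genes tested, and with TMM 16 were called higher and 12 lower. HDAC4, a class II histone deacetylase, was counted at 24.6, 21.8 and 24.1 in MS13 samples, just above the background limit, against 176, 181 and 181 in controls (log2 fold change -2.92, SE 0.13). HDAC6, which acts on tubulin and HSP90, averaged 71.0 ± 18.0 with MS13 and 250 ± 26.0 in controls, and HDAC5 rose to 175 ± 11.8 with MS13, against 71.5 ± 11.4 in controls. ARID1B, of the SWI/SNF remodeller, and IDH2 fell by 1.46 and 1.62, while the demethylase gene TET2 rose by 0.87. NPM1, which encodes the nucleolar chaperone nucleophosmin and has many processed pseudogenes, rose to 538 ± 18.5 with MS13, against 117 ± 6.40 in controls. MYC, at 1206 ± 29.4 with MS13 and 1352 ± 51.3 in controls, was called lower with housekeeping scaling (-0.17) and higher with TMM (0.26), so its direction was not settled.

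**Figure D4:**
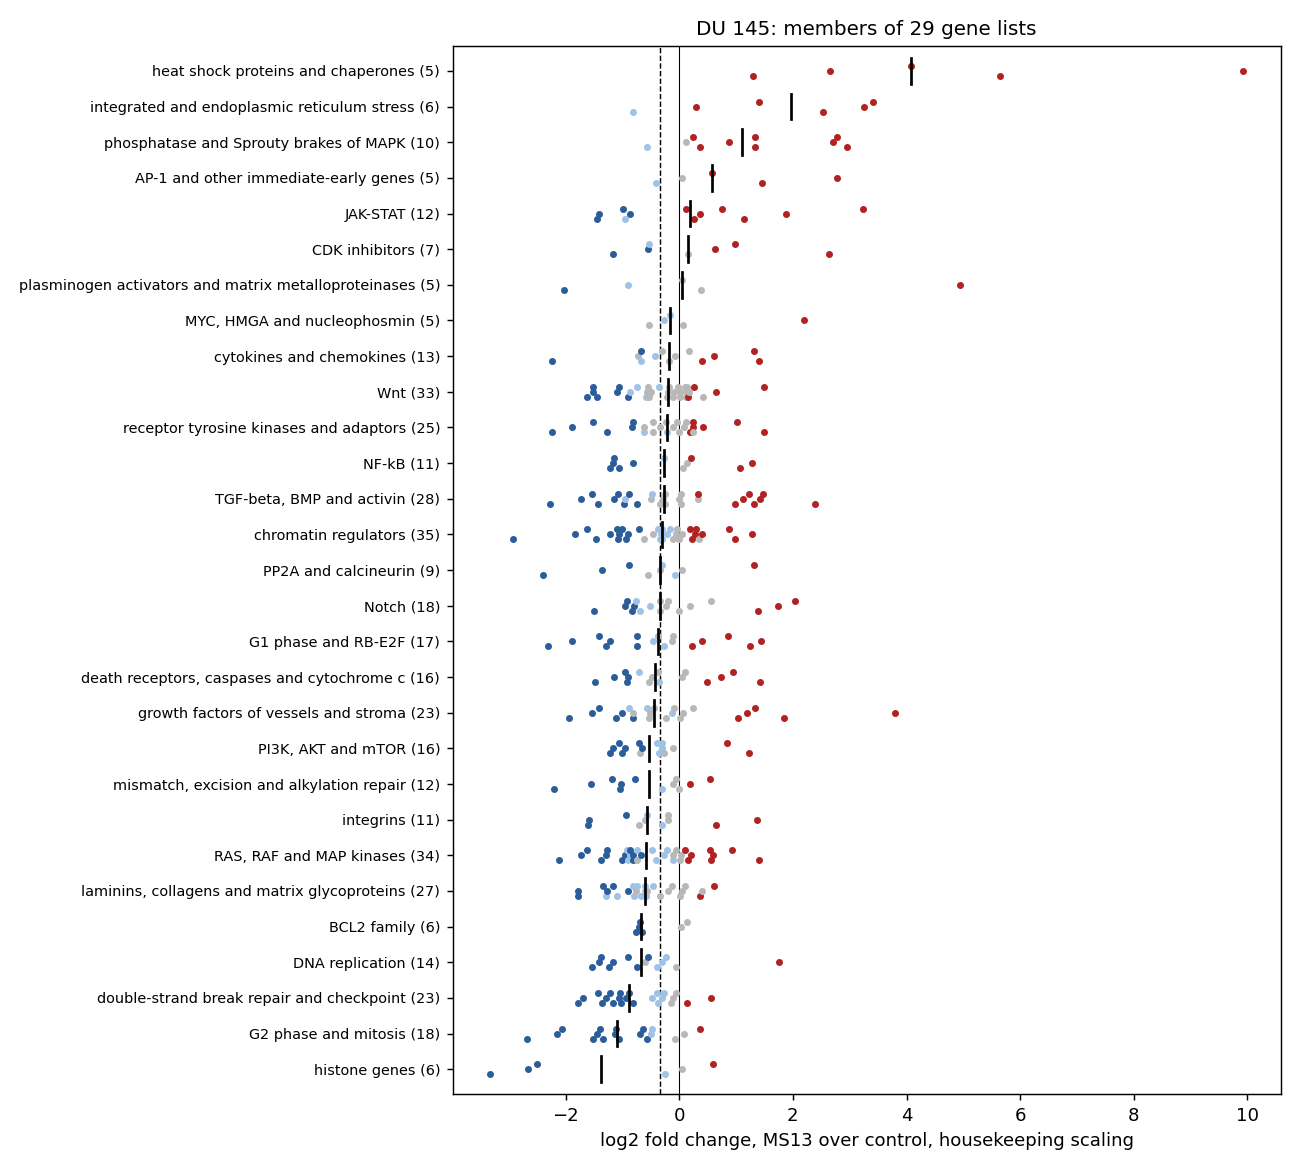
Log2 fold change of MS13 over control in DU 145 cells for every tested member of 29 gene lists, ordered by list median (thick bars; number tested in brackets). Red, called higher and dark blue, called lower under all 4 scalings; light blue, called lower with housekeeping scaling but not under all 4; grey, not called; the dashed line is the median of all 684 genes at -0.34. The list medians run from 4.08 (heat shock) to -1.38 (histone genes).

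The size of the response differed between DU 145 and PC-3 cells in 342 of the 684 genes (50%, interaction term of the same edgeR fit, adjusted p of at most 0.05), 217 of them under all 4 scalings. With the 40 housekeeping genes DU 145 minus PC-3 was above 0 in 123 genes and below 0 in 219, a balance that can shift with the scaling. Before scaling, the housekeeping geometric mean was 382 to 475 with MS13 and 323 to 366 in controls in DU 145. In PC-3 it was 268 to 300 with MS13 and 315 to 344 in controls. Control replicates 2 and 3 of PC-3 did not differ beyond sampling noise (chi-square over its degrees of freedom 1.05, against 1.24 and 1.29 for the other pairs of PC-3 controls) and were counted as 1 sample, so n = 2 there. The 5 genes with the largest fitted difference above 0 were SPRY4, SOCS1, DUSP6, ITGA2 and DUSP5. SPRY4, at least 6.35-fold higher with MS13 in DU 145, fell in PC-3 cells, at 204 ± 4.22 with MS13 (SD, n = 3) and 367 ± 29.9 in controls (n = 2). Its fitted difference of 3.61 (SE 0.17, edgeR adjusted p = 4.24e-32) has no fixed size, because the mean of its DU 145 controls lay under the background limit. DUSP6 and ITGA2 rose in DU 145 (1.34 and 1.37) and fell in PC-3 cells (-0.87 and -0.74). SOCS1 and DUSP5 rose in both lines, by 3.23 and 2.71 in DU 145 and by 0.36 and 0.63 in PC-3.

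At the other end, GADD45B rose by 1.40 in DU 145 and by 3.69 in PC-3 cells, a difference of -2.29 (SE 0.090, adjusted p = 2.17e-36). ID1 fell by 2.28 in DU 145 and by 0.21 in PC-3, where it stood at 5049 ± 197 with MS13 and 5834 ± 37.0 in controls. BDNF, a neurotrophin gene, and NFKBIA fell in DU 145 (-1.67 and -1.21) and rose in PC-3 cells (0.41 and 0.62). CDH1 fell by 1.38 in DU 145, while in PC-3 its log2 fold change of 0.05 did not pass the test, and the difference of -1.43 did (SE 0.096, adjusted p = 1.26e-22). The differences of these 10 genes kept their sign under every scaling and every left-out sample that was tried. In contrast, with housekeeping scaling the differences of HSPA6 (-0.46, SE 0.34, adjusted p = 0.265) and UBB (0.04, SE 0.050) did not pass the test. Neither did those of CDKN1A (0.10, SE 0.10), PLAU (0.11, SE 0.052) and HIST1H3H (0.03, SE 0.058). Over the scalings and other settings tried, the difference of ID1 ran from -2.09 to -1.73 and that of DUSP5 from 2.05 to 2.43. Small differences can thus depend on the scaling, and an equal response of the lines under other scalings was not shown. HSPA6 has no fixed size in this comparison either, because the mean of its controls lay under the background limit in both lines.

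**Figure D5:**
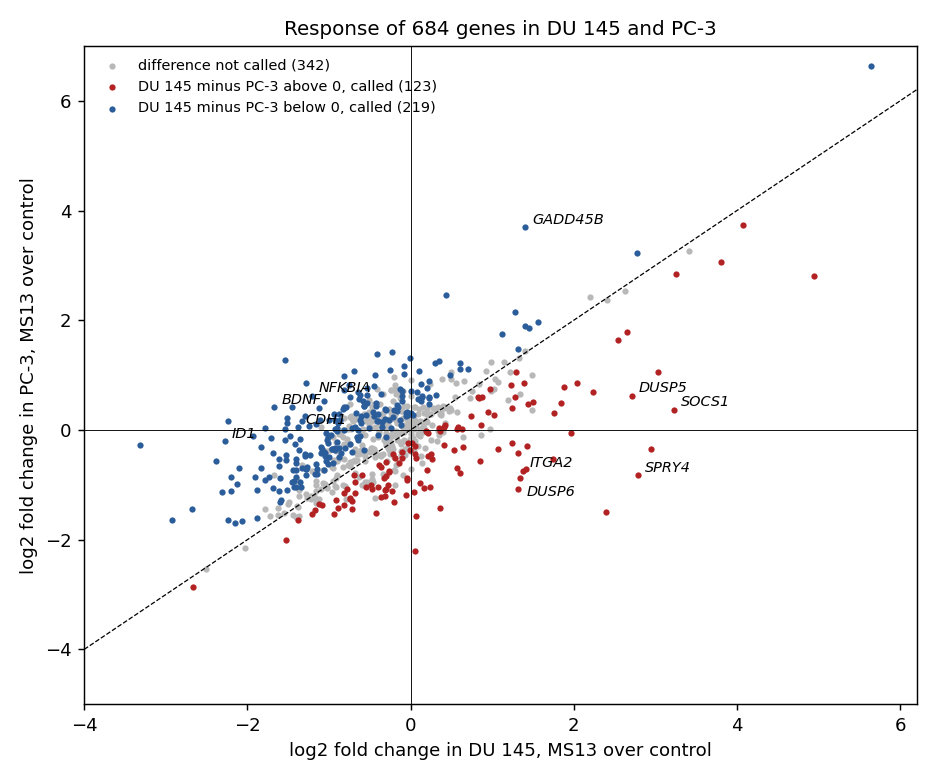
Log2 fold change of MS13 over control in DU 145 (horizontal) and PC-3 cells (vertical) for the tested genes, with the line of equal response dashed. Red and blue mark genes whose difference between the lines was called with housekeeping scaling (123 above 0, 219 below 0). HSPA6 lies beyond the axes (fitted value 9.92 in DU 145), and the named genes are the 5 farthest from the dashed line on each side among called genes with a group mean of at least 100 in both lines.

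Genes at the 2-fold threshold show how sharp the DEG call is. KITLG and NFKBIZ were just inside it among the rises (1.03 and 1.07), and IL1RAP and KDM5C just outside (0.99 and 0.97). EFNA3 and MLLT3 (-1.003 and -1.01) were just inside among the falls, and MED12 and TBL1XR1 (-0.97 and -0.96) just outside. Of the 232 genes that did not pass the test, 79 lay above the background limit in at least 1 group. A gene at 100 counts carries a counting error of about 10%, which shrinks as counts grow, so changes of genes near the background are measured less precisely than those of the genes described above.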

How the data were processed

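The table deposited by the authors holds raw nCounter counts, neither background-subtracted nor normalised, with 6 positive and 8 negative control probes besides the panel genes. The authors normalised in nSolver with geNorm-selected housekeeping genes, and those values were not used here.

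The quasi-likelihood test of edgeR 4.0.16 (R 4.3.3) was fitted to the raw counts of the 4 groups, with offsets from 40 housekeeping genes. These genes, the control probes and genes with a mean count under 10 over the 12 samples were not tested, and 684 genes remained. The fit had 11 samples, since PC-3 control replicates 2 and 3 were summed. Benjamini-Hochberg adjustment covered every tested gene. An SE is the absolute log2 fold change over the square root of F. Where the mean of 1 group was under its background limit, the other group's mean was divided by that limit to give a lower bound of the fold. The procedure was tested on simulated counts in which the housekeeping genes did not change with treatment. It recovered 84.7% of 1.5-fold and 94.7% of 2-fold changes, and 4.44% of its calls were false. The simulation cannot speak to the choice of scaling, because the housekeeping genes of the real samples did move. The counts per sample set the counting error, which is largest for genes near the background.

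The members, the gene lists, the motifs and the rule for naming genes were chosen with earlier results of these data known. The rule named 10 DEGs at each end of the fold changes (higher group mean of at least 100, groups apart), per list the 4 members of lowest adjusted p and others by value, 5 genes at each end of the difference between the lines, and genes next to the 2-fold threshold. Alternatives were TMM, the positive probes, the 10 most stable housekeeping genes, DESeq2 1.42.0 with its own and with housekeeping size factors, negative probe subtraction (housekeeping genes unsubtracted), no filter and a mean count of 50, DU 145 alone with and without a replicate block, 12 separate samples, Benjamini-Yekutieli adjustment, a fold of 1.5 and each sample left out. Probe sequences were not used here. Promoter windows came from RefSeq (GRCh38.p14). Some panel genes and 1 gene list are not reported here.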

Additional observations from a re-analysis of the deposited data

Results flagged for a closer look

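The response of 10 genes differed between DU 145 and PC-3 cells by the interaction term of the edgeR fit, and these were the 5 with the largest difference on each side among called genes with a group mean of at least 100 normalised counts in both lines. The difference in log2 fold change, DU 145 minus PC-3, was 3.61 for SPRY4, 2.86 for SOCS1, 2.21 for DUSP6, 2.11 for ITGA2 and 2.08 for DUSP5. It was -2.29 for GADD45B, -2.08 for BDNF, -2.07 for ID1, -1.83 for NFKBIA and -1.43 for CDH1. Adjusted p-values ran from 3.25e-47 for ID1 to 6.01e-21 for SOCS1. Over the alternatives tried, the difference ran from 3.49 to 4.88 for SPRY4 and from 2.75 to 3.85 for SOCS1, both highest with the negative probes subtracted. The DU 145 controls of these genes averaged 25.0 normalised counts (SPRY4) and 27.7 (SOCS1), next to the background limit of 27.1, so that the difference of SPRY4 has no fixed size. CDH1 ran from -1.49 to -1.08. The lines were grown in different media, so that line and medium cannot be told apart.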

How the results depend on the processing

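Scaling moved the balance of higher and lower genes, and the fold threshold the number of DEGs. With TMM, 226 genes were higher and 203 lower, 59 DEGs were lower, and the median log2 fold change of all genes was 0.0833. With the positive probes, 89 DEGs were lower and the median was -0.0651. With the 10 most stable housekeeping genes the median was -0.184, and with DESeq2's own size factors 200 genes were lower, 78 DEGs were lower and the median was 0.00287. Of the 452 calls, 333 kept their direction and call with TMM and 28 were called the other way, against 330 and 12 with DESeq2's own size factors. A fold of 1.5 gave 331 DEGs, 246 of them lower. H3F3A, called lower with housekeeping scaling, was called higher with TMM (0.17) and DESeq2's own size factors (0.0936), and so was MYC (0.26 and 0.18). With the positive probes neither was called (H3F3A 0.0237, edgeR adjusted p = 0.648, and MYC 0.11, adjusted p = 0.0546). NR4A3, lower with housekeeping scaling, was at 0.0153 with TMM.

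Leaving out 1 sample at a time gave 423 to 452 changed genes (121 to 130 higher, 296 to 323 lower), 201 to 210 DEGs (59 to 64 higher, 137 to 151 lower), 316 to 336 genes with a difference between the lines and a median of -0.4 to -0.297. Without a DU 145 sample 22 to 35 calls were lost and none changed sign. The PC-3 samples were left out as an alternative chosen after seeing the data. LIG4 was at 0.07 without control replicate 1 (edgeR adjusted p = 0.373) and at 0.10 without MS13 replicate 2 (adjusted p = 0.176). Replicate numbers were not shown to pair the samples: deviations of same-numbered MS13 and control samples correlated at -0.0021, -0.085 and -0.030 over 358 genes. With a replicate block in the 6 DU 145 samples, 428 genes changed (125 higher, 303 lower), with 204 DEGs and a median of -0.347. Depth limits genes near the background, where 198 genes lay under the limit in both groups.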
